A study of Rhodotorula toruloides with 2 samples.

Results

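Sterol 24-C-methyltransferase (RHTO_00856) and phytoene desaturase (RHTO_04602) are enzymes of the ergosterol and the carotenoid branch of isoprenoid synthesis, and they are 2 of the 1402 genes listed in the table that the authors deposited. They were chosen by gene identifier, with their counts and ratios already known, so their difference between the libraries is a description and carries no test. The choice used no threshold of its own, but every gene in the table had passed a filter of the authors, with a smallest absolute log2 ratio of 1.0003 and a largest false discovery rate (FDR) of 9.75e-04. The oleaginous red yeast Rhodotorula toruloides (also called Rhodosporidium toruloides), wild type, strain AS 2.1389, was grown in a stirred tank chemostat, and inorganic phosphate (Pi) was either limiting or replete. Each condition gave 1 library, named here as the library labelled as Pi-limited and the library labelled as Pi-replete. No replicate culture is named, so the spread between cultures was not measured. The intervals below cover counting error only. The medium, the dilution rate and the Pi concentrations are not stated in the sources used here, and a smaller share of cells expressing a gene cannot be told apart from less of its RNA per cell.

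Isoprenoids are built from acetyl-CoA through mevalonate, which gives the activated isoprene unit that prenyltransferases join into longer chains. One branch joins farnesyl chains into squalene and turns it into ergosterol, the main sterol of fungal membranes. Another joins geranylgeranyl chains into colourless phytoene, which phytoene desaturase converts into coloured carotenoids, the pigments for which red yeasts are named. Sterol 24-C-methyltransferase (Erg6 in Saccharomyces cerevisiae) moves a methyl group from S-adenosylmethionine onto the sterol side chain, a group that ergosterol has and cholesterol lacks. No sequence is printed for either gene.

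The library totals were 5892590 counts for the library labelled as Pi-limited and 5641377 for the library labelled as Pi-replete, a gap of 4.45%. A sodium:Pi symporter (RHTO_01284), of a class that fungi are known to induce when Pi is short, had 22 counts in the library labelled as Pi-limited and 5797 in the library labelled as Pi-replete, the opposite of what the labels would give. Whether the labels of the libraries were exchanged was not tested, and an exchange would reverse every direction given below. Samples keep their deposited labels here, and each direction below follows the label. Since each group is 1 library, no value could be given without it.

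Both enzymes were higher in the library labelled as Pi-limited, and by similar factors. Sterol 24-C-methyltransferase had 1376 counts in the library labelled as Pi-limited (exact Poisson 95% interval 1304 to 1451) and 439 in the library labelled as Pi-replete (399 to 482). In RPKM, reads scaled by gene length and by library total, its level was 216 in the first (205 to 228) and 72.1 in the second (65.5 to 79.1). The counting intervals of the 2 libraries lay far apart. At such counts any gene that passed the authors' filter would have separate intervals, so this adds no support. The fold between the libraries, from counts divided by the totals, was 3.00 (2.69 to 3.35), a log2 ratio of 1.59.

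Phytoene desaturase, which KEGG describes as the form that makes didehydrolycopene, had 716 counts in the library labelled as Pi-limited (665 to 770) and 251 in the library labelled as Pi-replete (221 to 284). Its level was 66.3 RPKM in the first (61.5 to 71.3) and 24.3 RPKM in the second (21.4 to 27.5). These intervals did not overlap either, which the filter again made certain at such counts. The fold was 2.73 (2.36 to 3.17), a log2 ratio of 1.45. In the authors' deposited table the FDR was 2.93e-102 for the sterol enzyme and 4.38e-47 for the desaturase, and as there is no replicate, these compare the 2 libraries, not the conditions.

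**Figure D1:**
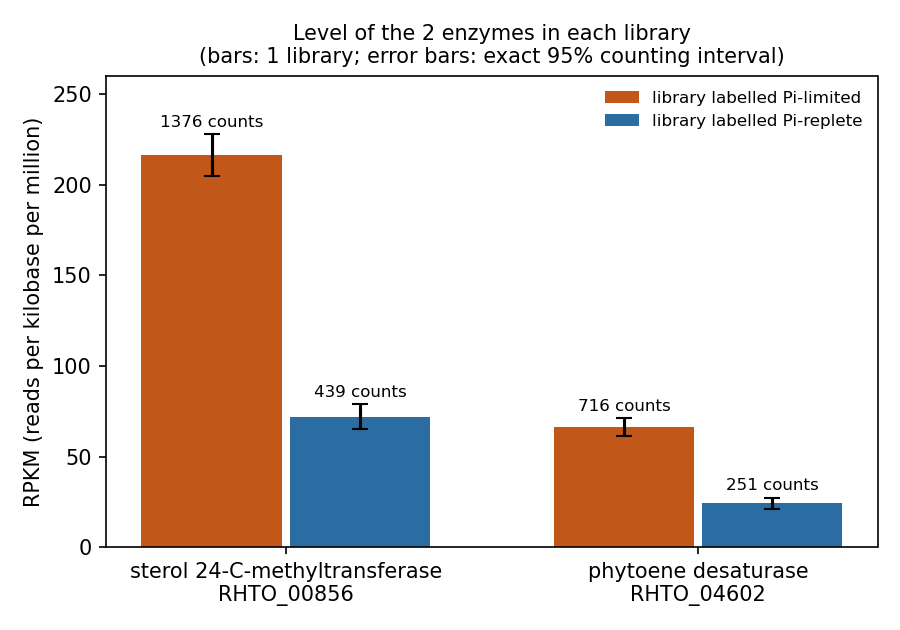
RPKM of both enzymes (vertical axis) in the library labelled as Pi-limited (orange) and the library labelled as Pi-replete (blue), with 1 library per bar, exact 95% counting intervals as error bars and the raw count above each bar. Sterol 24-C-methyltransferase goes from 216 to 72.1 RPKM and phytoene desaturase from 66.3 to 24.3 RPKM, so the sterol enzyme stands above the carotenoid enzyme in each library.

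Per length, the sterol enzyme was the more abundant transcript in both libraries. Its RPKM was 3.26 times that of the desaturase in the library labelled as Pi-limited (2.98 to 3.57) and 2.97 times in the library labelled as Pi-replete (2.54 to 3.48). These intervals overlap. The fold of the sterol enzyme divided by the fold of the desaturase was 1.10, with an exact conditional interval of 0.914 to 1.32, a quantity that no scaling of the libraries can change. At this depth the folds of the enzymes could not be told apart, and the interval leaves room for either to be the larger.

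Among the listed genes the sterol enzyme ranked high in level. In the library labelled as Pi-limited it stood at place 96 of 1402 by RPKM, above 93.2% of the listed genes, where the median was 21.3 RPKM. In the library labelled as Pi-replete it stood at place 312, above 77.7% of them, where the median was 17.3 RPKM. The desaturase stood at place 288 in the first and place 590 in the second, above 79.5% and 57.9% of the listed genes. By the size of the difference neither gene was extreme. Of the 817 genes higher in the library labelled as Pi-limited, 58.6% had a smaller log2 ratio than the sterol enzyme and 50.4% a smaller one than the desaturase, and the median of the 817 was 1.45. The counting interval of the sterol enzyme's fold held the folds of 145 listed genes, itself included, and that of the desaturase the folds of 273.

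These directions are read against a table in which most genes had the same one. Of the 1402 listed genes 58.3% were higher in the library labelled as Pi-limited and the other 41.7% were lower. Dividing FDR by p showed that the authors had tested 7970 genes, of which 17.6% were listed and 10.3% were listed and higher in the library labelled as Pi-limited. Setting the median ratio of the listed genes to 0 moved every log2 ratio by -1.10, and equal totals over the listed genes moved every one by 0.31. After centring, the log2 ratio was 0.49 for the sterol enzyme and 0.35 for the desaturase, both above 0 but under 2-fold. The authors' filter left no gene under 2-fold and most listed genes were higher, so their median had to lie above 2-fold. A value under 2-fold or below 0 after centring therefore cannot show whether a gene changed.

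**Figure D2:**
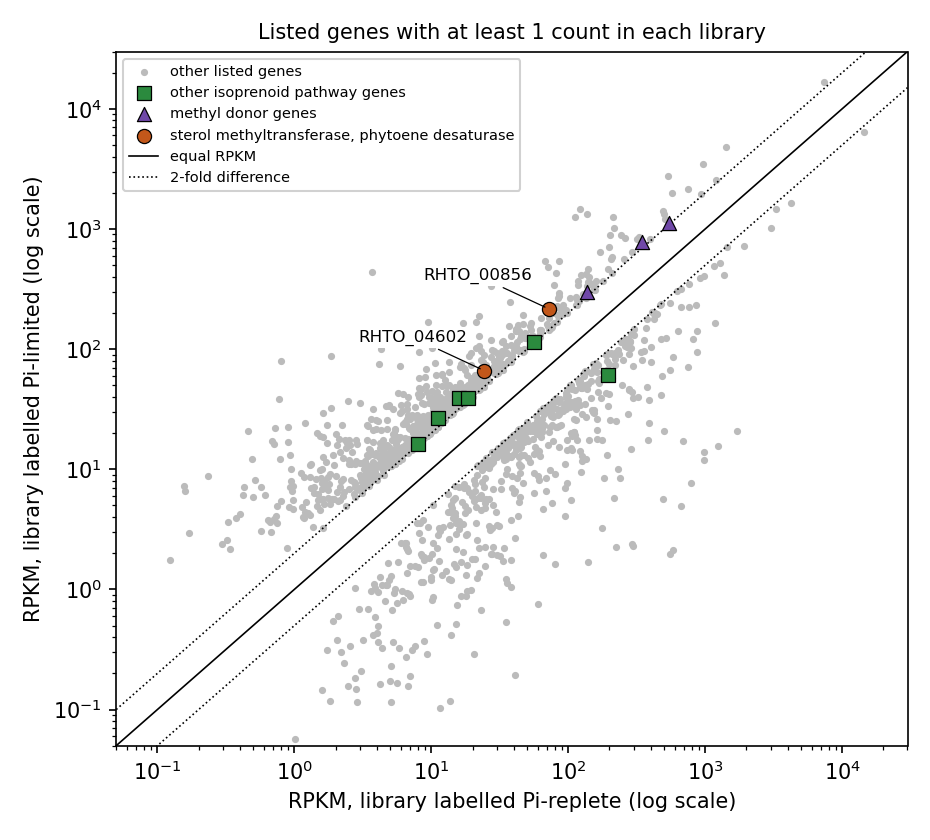
RPKM of each listed gene with at least 1 count in each library, in the library labelled as Pi-replete (horizontal, log scale) and the library labelled as Pi-limited (vertical, log scale). Orange circles are the sterol methyltransferase and the phytoene desaturase, green squares the other isoprenoid pathway genes and purple triangles the methyl donor genes. The empty band between the dotted 2-fold lines is the authors' filter, and 1 green square, RHTO_00476, lies on the lower side.

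The isoprenoid pathway list, matched to the deposited descriptions, held 8 listed genes including both enzymes, 7 of them higher and 1 lower in the library labelled as Pi-limited, against 58.3% higher and 41.7% lower over all listed genes. None of the 8 differed 4-fold, a size that 14.1% of the listed genes reached as higher and 19.8% as lower in the library labelled as Pi-limited. Of the 6 without the chosen pair, 5 were higher and 1 lower. The median log2 ratio was 1.17 over the 8 and 1.06 over those 6. It was 1.10 over all listed genes, lower ones included, and 1.45 over the 817 higher genes. After median centring 0 of the 7 stayed at least 2-fold higher, and 3 of them had a log2 ratio below 0: RHTO_07628 (-0.060), RHTO_05792 (-0.016) and RHTO_05800 (-0.072). Genes of the pathway outside the table were not analysed here, so the list says nothing of those steps.

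The lower gene was matched, by description, to a step at the head of the pathway. RHTO_00476, described by KEGG both as acetyl-CoA C-acetyltransferase, which joins acetyl units ahead of mevalonate, and as a thiolase of fatty acid breakdown (acetyl-CoA acyltransferase), had 428 counts in the library labelled as Pi-limited and 1318 in the library labelled as Pi-replete. It was 3.22-fold higher in the latter (2.88 to 3.60). Which of its described activities this enzyme has was not tested. Beside it, 0 other listed genes matched the mevalonate patterns.

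The prenyl chain patterns matched 2 genes, and neither is plainly a chain-building enzyme. RHTO_05792 is related to the farnesyl pyrophosphate synthetase ERG20 by BLAST but is described by KEGG as CGI121, a protein of tRNA modification in S. cerevisiae. It had 146 and 66 counts in the libraries labelled as Pi-limited and Pi-replete, and was higher in the former by 2.12-fold (1.57 to 2.88). RHTO_05800 is described as the beta subunit of geranylgeranyl transferase type-1, which attaches a prenyl chain to proteins. It had 117 and 55 counts, 2.04-fold higher in the library labelled as Pi-limited (1.47 to 2.86).

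Of the 5 genes matched by the ergosterol patterns, all 5 were higher in the library labelled as Pi-limited (RHTO_05792 and RHTO_07628 fell below 0 on the log2 scale after median centring), against 58.3% of all listed genes. Their median log2 ratio was 1.26. It was 1.10 over all listed genes, lower ones included, and 1.45 over the 817 higher genes, so the 5 were not large among genes of their direction. RHTO_05792 is counted among the 5, and in their median, through its BLAST description alone, as KEGG describes it as CGI121. The sterol methyltransferase, which was chosen with its ratio known, is counted among the 5 and had the largest log2 ratio of them. RHTO_00164, a cytochrome P450 described as sterol 14-demethylase and also as cholesterol 7alpha-monooxygenase, had 250 counts in the library labelled as Pi-limited and 100 in the library labelled as Pi-replete, and was higher in the former by 2.39-fold (1.89 to 3.05). RHTO_02033, a delta14-sterol reductase, which acts after the demethylase in S. cerevisiae, had 313 and 122 counts and was 2.46-fold higher (1.99 to 3.05).

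RHTO_07628 is described as a sterol C-24 reductase of the ERG4 type, and ERG4 of S. cerevisiae encodes the enzyme of the last step to ergosterol. RHTO_07628 had 1011 counts in the library labelled as Pi-limited and 471 in the library labelled as Pi-replete, and was higher in the former by 2.05-fold (1.84 to 2.30). The fold of the sterol methyltransferase was 1.46 times that of this reductase (1.25 to 1.71), so these enzymes of the same branch differed in fold beyond counting error. Against the demethylase the quotient was 1.25 (0.960 to 1.63) and against the delta14 reductase 1.22 (0.957 to 1.55), and both intervals include equal folds.

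Phytoene desaturase was the sole gene matched by the carotenoid patterns, and patterns for opsins and retinal-binding proteins matched 0 listed genes, as did patterns for sterol transport, storage and sensing. Its fold was 1.33 times that of the ERG4-type reductase (1.11 to 1.60), 1.14 times that of the demethylase (0.859 to 1.51) and 1.11 times that of the delta14 reductase (0.854 to 1.44). The desaturase thus lay within counting error of 3 of the 4 other listed genes with a sterol enzyme description, the sterol methyltransferase among them.

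**Figure D3:**
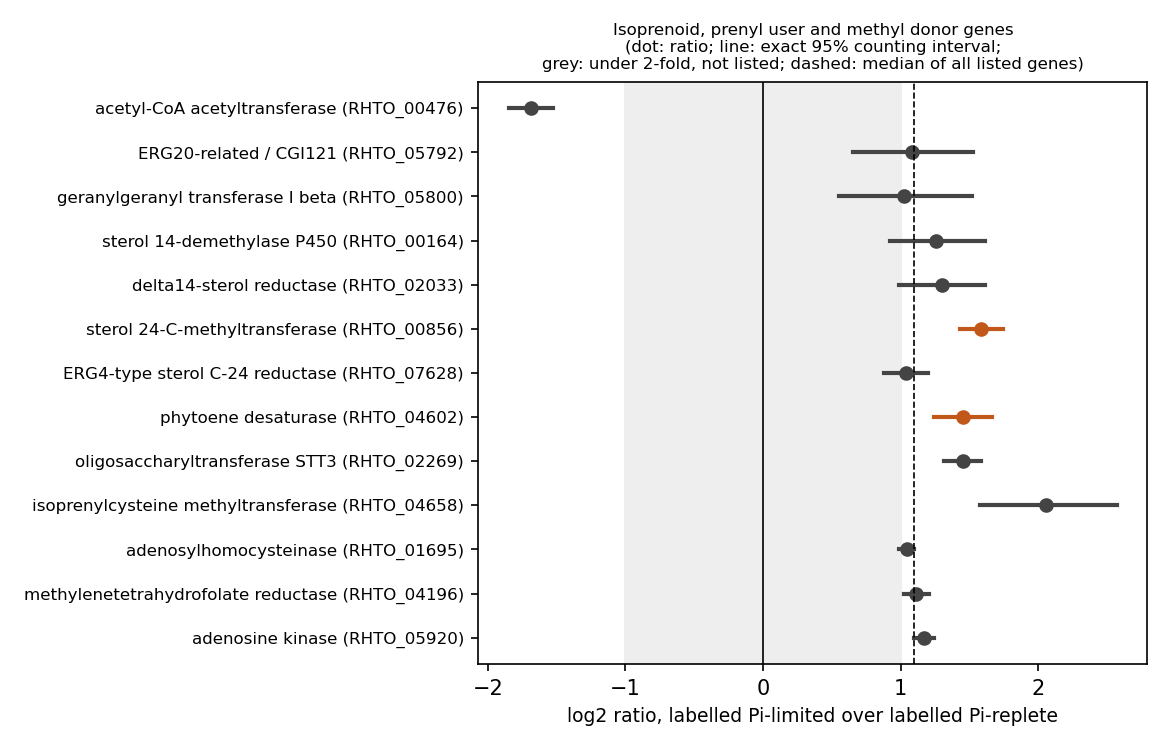
Log2 ratio (horizontal axis, library labelled as Pi-limited over library labelled as Pi-replete) of 13 genes of the isoprenoid, prenyl user and methyl donor lists, with exact 95% counting intervals as lines. The sterol methyltransferase (1.59) and the phytoene desaturase (1.45) are in orange, 1 gene (RHTO_00476) lies below 0, and the grey band marks differences under 2-fold, which the table does not list.

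Other products also draw on prenyl chains. Beside RHTO_05800, described above, the patterns for such uses matched 2 listed genes, and these were higher in the library labelled as Pi-limited, as were 58.3% of all listed genes. RHTO_02269, the STT3 subunit of oligosaccharyltransferase, which moves sugar chains from a dolichol carrier onto proteins, had 1714 and 601 counts in the libraries labelled as Pi-limited and Pi-replete. It was 2.73-fold higher in the former (2.49 to 3.00), and the desaturase's fold divided by its own had an interval of 0.840 to 1.19, centred near equal folds. RHTO_04658, described by KEGG as the methyltransferase that finishes prenylated proteins and by BLAST as the GTP-binding protein ypt5, had 187 and 43 counts and was 4.16-fold higher (2.98 to 5.94). The desaturase's fold was 0.656 of that (0.446 to 0.9499) and the sterol methyltransferase's 0.721 (0.496 to 1.03).

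The methyl group that the sterol methyltransferase transfers comes from S-adenosylmethionine, and 3 listed genes matched the patterns for making or recycling that donor. All 3 were higher in the library labelled as Pi-limited by smaller factors than the sterol enzyme, although the log2 ratio of adenosylhomocysteinase fell to -0.055 after median centring. Of all listed genes 58.3% had that direction. The median log2 ratio of the 3 was 1.11. It was 1.10 over all listed genes, lower ones included, and 1.45 over the 817 higher genes. Adenosylhomocysteinase (RHTO_01695), which splits the product that methyltransferases leave, had 8465 and 3930 counts, 2.06-fold higher (1.99 to 2.14). Adenosine kinase (RHTO_05920), which removes the adenosine so released, had 4851 and 2067 counts, 2.25-fold higher (2.13 to 2.37). Methylenetetrahydrofolate reductase (RHTO_04196), which supplies the folate for methionine synthesis, had 3137 and 1388 counts, 2.16-fold higher (2.03 to 2.31).

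The sterol methyltransferase's fold was 1.46 times that of adenosylhomocysteinase (1.30 to 1.63), 1.34 times that of adenosine kinase (1.18 to 1.51) and 1.39 times that of the reductase (1.22 to 1.57). For the desaturase, which uses no such donor, the same quotients were 1.32 (1.14 to 1.54), 1.22 (1.04 to 1.42) and 1.26 (1.08 to 1.48). Both enzymes thus differed in fold from each of the 3 donor genes beyond counting error. In all, 23 such quotients were computed, 12 for the sterol enzyme and 11 for the desaturase, without adjusting the intervals for their number. The interval left out 1 in 7 of the 12 and in 6 of the 11, and 12 of these 13 quotients lay above 1. Both enzymes were chosen with their ratios known, and no such share was computed over all listed genes. The intervals of their own folds held the folds of 145 and 273 of the 1402 listed genes. Most listed genes thus lay outside them, and nothing about the enzymes is read from these counts.

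Among methyltransferases as a class, 16 genes were listed, 10 higher and 6 lower in the library labelled as Pi-limited, or 62.5% higher against 58.3% over all listed genes. The sterol enzyme had the third largest log2 ratio of those with 50 counts or more in their higher library. Ahead of it stood RHTO_04658 (2.06) and RHTO_07326 (1.98), which is described as a uroporphyrin-III C-methyltransferase and had 70 and 17 counts in the libraries labelled as Pi-limited and Pi-replete. At the other end stood a catechol O-methyltransferase (RHTO_04406, -2.36, 14 and 69 counts), a trans-aconitate methyltransferase that BLAST describes as a cyclopropane-fatty-acyl-phospholipid synthase (RHTO_01749, -2.12, 195 and 813 counts) and a subunit of a tRNA adenine methyltransferase also described as a WD repeat protein (RHTO_07896, -2.04, 48 and 189 counts).

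The listed genes most like each enzyme were those at the smallest distance on log2 RPKM over the 2 libraries. For the sterol enzyme the nearest was RHTO_02909 (distance 0.13), described by BLAST as a potassium channel beta subunit and by KEGG as an enzyme of class EC 1.1.1.-. This gene had 220 and 78.6 RPKM in the libraries labelled as Pi-limited and Pi-replete. It was followed by the mitochondrial protease ATP23 (RHTO_00371, 0.16), a small ubiquitin-related modifier (RHTO_04546, 0.18), a D-lactate dehydrogenase (RHTO_04947, 0.21) and an organic hydroperoxide resistance protein (RHTO_07606, 0.26). For the desaturase the nearest was RHTO_02476, described as a zinc transporter, with 64.1 and 24.4 RPKM (distance 0.05). Next came an oligoribonuclease (RHTO_04952, 0.05), a Pcl1-type cyclin (RHTO_04254, 0.06), a carbon-nitrogen hydrolase (RHTO_04812, 0.08) and dephospho-CoA kinase (RHTO_04302, 0.10). A distance of 0.5 took in 22 of the 1402 listed genes around the sterol enzyme and 67 around the desaturase. The genes named here are thus not the only ones near either enzyme in level.

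Along the genome, the listed genes beside the enzymes had both directions. The counts of listed neighbours below stand beside the 17.6% of all tested genes that were listed, and with so few neighbours nothing is read from them. In the RefSeq gene table of RHOziaDV1.0 (strain NP11), used here for order alone, 10 identifiers around the desaturase held 3 listed genes. RHTO_04603, directly after it and described only as a hypothetical protein, had 51 and 19 counts in the libraries labelled as Pi-limited and Pi-replete, and was higher in the former by 2.57-fold (1.49 to 4.61). RHTO_04601, directly before it and related to the yeast protein PNS1, had 24 and 62 counts, 2.70-fold higher in the library labelled as Pi-replete (1.66 to 4.52). RHTO_04597, an ABC transporter of the multidrug resistance type, had 237 and 85 counts, 2.67-fold higher in the library labelled as Pi-limited (2.08 to 3.46).

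Around the sterol enzyme, positions ran on for 6 of the 10 identifiers and then started anew, and 2 of the 6 were listed. RHTO_00855, directly before it and with no functional description, had 1072 and 2670 counts, 2.60-fold higher in the library labelled as Pi-replete (2.42 to 2.80). RHTO_00853, whose best hit is a proteophosphoglycan, had 345 and 104 counts, 3.18-fold higher in the library labelled as Pi-limited (2.54 to 3.99). Whether counting used strand is not stated in the sources used here, so reads of genes that overlap could not be told apart.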

How the data were processed

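RNA-seq was made on 1 culture sample for each condition. The authors deposited 1 filtered table with raw counts, RPKM, the log2 ratio of RPKM, p-values and FDR per gene, per the file headers. The submitters' processing notes name Cufflinks and DESeq, with no role or version. The aligner and build are not stated in the sources used here. Each library total was recovered as count divided by length and RPKM. The deposited length, headed as gene length, is a multiple of 3 for 99.4% of genes and was therefore read as a coding length. Folds of counts over totals have exact conditional binomial 95% intervals, and quotients of folds exact conditional odds-ratio intervals (Python 3.11.15, scipy 1.17.1), tested on simulated data. They cover counting error only. With 1 library a group no test was made.

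The enzymes and the 9 gene lists were chosen with earlier results of these data known. Lists were matched to BLAST and KEGG descriptions. Named are all listed genes of each list (of methyltransferases, the 3 at each end with at least 50 counts), the 5 nearest in RPKM, and listed genes within 5 identifiers. RHTO_01284 was added as a check of the labels after its values were seen. All 1402 identifiers matched the RefSeq table. Alternatives were other scalings, a pseudocount of 1 RPKM, stricter filters and 1 description source.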

Additional observations from a re-analysis of the deposited data

How the results depend on the processing

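The log2 ratio of the sterol methyltransferase was 1.90 with equal totals over the listed genes and 0.49 after centring on their median, and that of the desaturase 1.76 and 0.35. With a pseudocount of 1 RPKM the values were 1.57 and 1.41, inside their counting intervals. Of the isoprenoid list, 7 genes were higher and 1 lower. These counts take genes at least 2-fold apart. The number higher by that measure became 0 after centring, though both enzymes kept a log2 ratio above 0, and was 0 at 4-fold or more and 2 with BLAST descriptions alone, and the number lower became 0 at 4-fold or more and 0 with BLAST descriptions alone. Equal totals, at least 100 counts, an FDR of at most 1e-10 (5 higher) and KEGG descriptions alone (6 higher) kept the number higher within 1.5 times. Of 30 other named genes, in alternatives added after the data were seen, 4 changed sign after centring: RHTO_01695 (-0.055), RHTO_05792 (-0.016), RHTO_05800 (-0.072) and RHTO_07628 (-0.060). By its construction centring moves every gene by the same amount. The filter alone placed the median of the listed genes beyond 2-fold, so these changes of sign cannot show whether a gene changed. Leaving out a replicate was not possible. No paired analysis was possible because each group has 1 library. Depth bounds the comparison of the enzymes: a quotient of folds between 0.914 and 1.32 could not be narrowed.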

Other observations

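A D-lactate dehydrogenase (RHTO_04947), picked out after its values were seen, had exactly the counts of phytoene desaturase in both libraries, 716 and 251, on a gene of 537 against 1833 bases. Among the 1052 listed genes with 100 counts or more in their higher library, 3 pairs shared both counts.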
